A study of Homo sapiens with 18 samples.

Results

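The genes described here are the 146 whose RNA was strongly lowered by LPS (lipopolysaccharide, a bacterial wall component sensed through TLR4) in shNT THP-1 cells. They were chosen by CPM (counts of a gene scaled to the total of all counted reads of its library). A member had at least 5 CPM in each of the 3 unstimulated shNT libraries, and its mean CPM in the 3 LPS-treated shNT libraries was at most 0.4 of the unstimulated mean. Of 57500 genes counted, 10657 passed the CPM floor and 146 of those, or 1.37%, met the ratio limit. Most members (95.2%) are protein-coding. Since the shNT libraries chose the members, their fall in shNT cells is given without a test. Only the libraries of the knockdown lines were used for tests, apart from an alternative fit that holds all 18 libraries.

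THP-1 is a human monocytic leukaemia line. Stable lines were made by lentiviral transduction with a non-target short hairpin RNA (shNT), with a hairpin against NR4A2 (shNR4A2) or with a hairpin against NR4A3 (shNR4A3), and grown under puromycin; whether each line is a clone or a pool is not given in the sources used here. All cells first rested for 2 h in buffered medium with serum. Cells of a line were sampled unstimulated (control) or after 2 h with 2.5 μg/ml LPS, and each of the 6 groups holds 3 libraries, given by the study as independent experiments. The 18 libraries of polyadenylated RNA held between 16171161 and 23929138 counted reads, with a median of 19639071. In bulk RNA, fewer cells expressing a gene and less RNA of it per cell cannot be told apart.

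The labels were checked first. NR4A2, with LPS, was at 62.2, 74.7 and 51.2 TPM (a level scaled for gene length) in shNT cells and at 20.5, 28.3 and 14.8 TPM in shNR4A2 cells. NR4A3, with LPS, was at 30.9, 32.3 and 31.9 TPM in shNT cells and at 17.0, 18.2 and 16.6 TPM in shNR4A3 cells. Both targets were lower in their own knockdown line with no overlap between libraries, and each knockdown was partial. NR4A2 in LPS-treated shNR4A3 cells was at 41.8, 60.8 and 38.3 TPM. TNF, an early LPS target, was at 65.3 ± 11.8 TPM in unstimulated shNT cells and at 2118 ± 136 TPM with LPS (mean ± SD, n = 3). All 10 monocytic markers examined, among them CD14, LYZ, CSF1R and SPI1, reached 1 TPM, and SPI1 was the most abundant of them with up to 1132 TPM. None of 4 T cell, 3 erythroid or 3 fibroblast markers reached 1 TPM in any library. Of 4 B cell markers 3 reached it, led by PAX5 with up to 7.46 TPM, while MS4A1 did not exceed 0.0675 TPM. GNLY of natural killer cells reached 1.26 TPM and the epithelial keratin KRT8 1.59 TPM.

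Monocytes meet LPS through TLR4 and answer within hours by making inflammatory mediators, while receptors and regulators of the resting or proliferating state lose RNA. Such RNAs can fall through lower synthesis, faster decay or both, and a fall within hours requires that the RNA is short-lived. NR4A2 and NR4A3 are orphan nuclear receptors of the NR4A family, immediate early genes that LPS itself induces, and they bind the NBRE element of target genes. The members fall into transcription factors, receptors and secreted proteins, signalling proteins, enzymes and a set with no clear role, and they are taken in that order.

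In shNT cells the unstimulated libraries gave the members a summed 7545, 7468 and 7271 CPM, and the LPS-treated libraries 2046, 2250 and 1780 CPM. The median member kept a ratio of 0.326, and the lowest was 0.0722. The control and LPS libraries of shNT cells overlapped for none of the 146, where 36.6% of all genes tested lay wholly lower with LPS, a difference fixed in large part by the rule. The 3 members just inside the limit were ZNF398 (0.398), DBP (0.398) and ZNF570 (0.399), and the genes just outside it were IDH1 (0.4001), MAP10 (0.4005) and KCTD12 (0.4008), so the list ends in a continuous range of values. In the knockdown lines ZNF570 lost its call when any single one of 3 shNR4A2 libraries or of 4 shNR4A3 libraries was left out (adjusted p between 0.0501 and 0.107, edgeR). Membership also rests on the scaling. With CPM scaled by TMM (trimmed mean of M values, edgeR's correction for library composition) 96 of the 146 still met the limit and no other gene did.

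**Figure D1:**
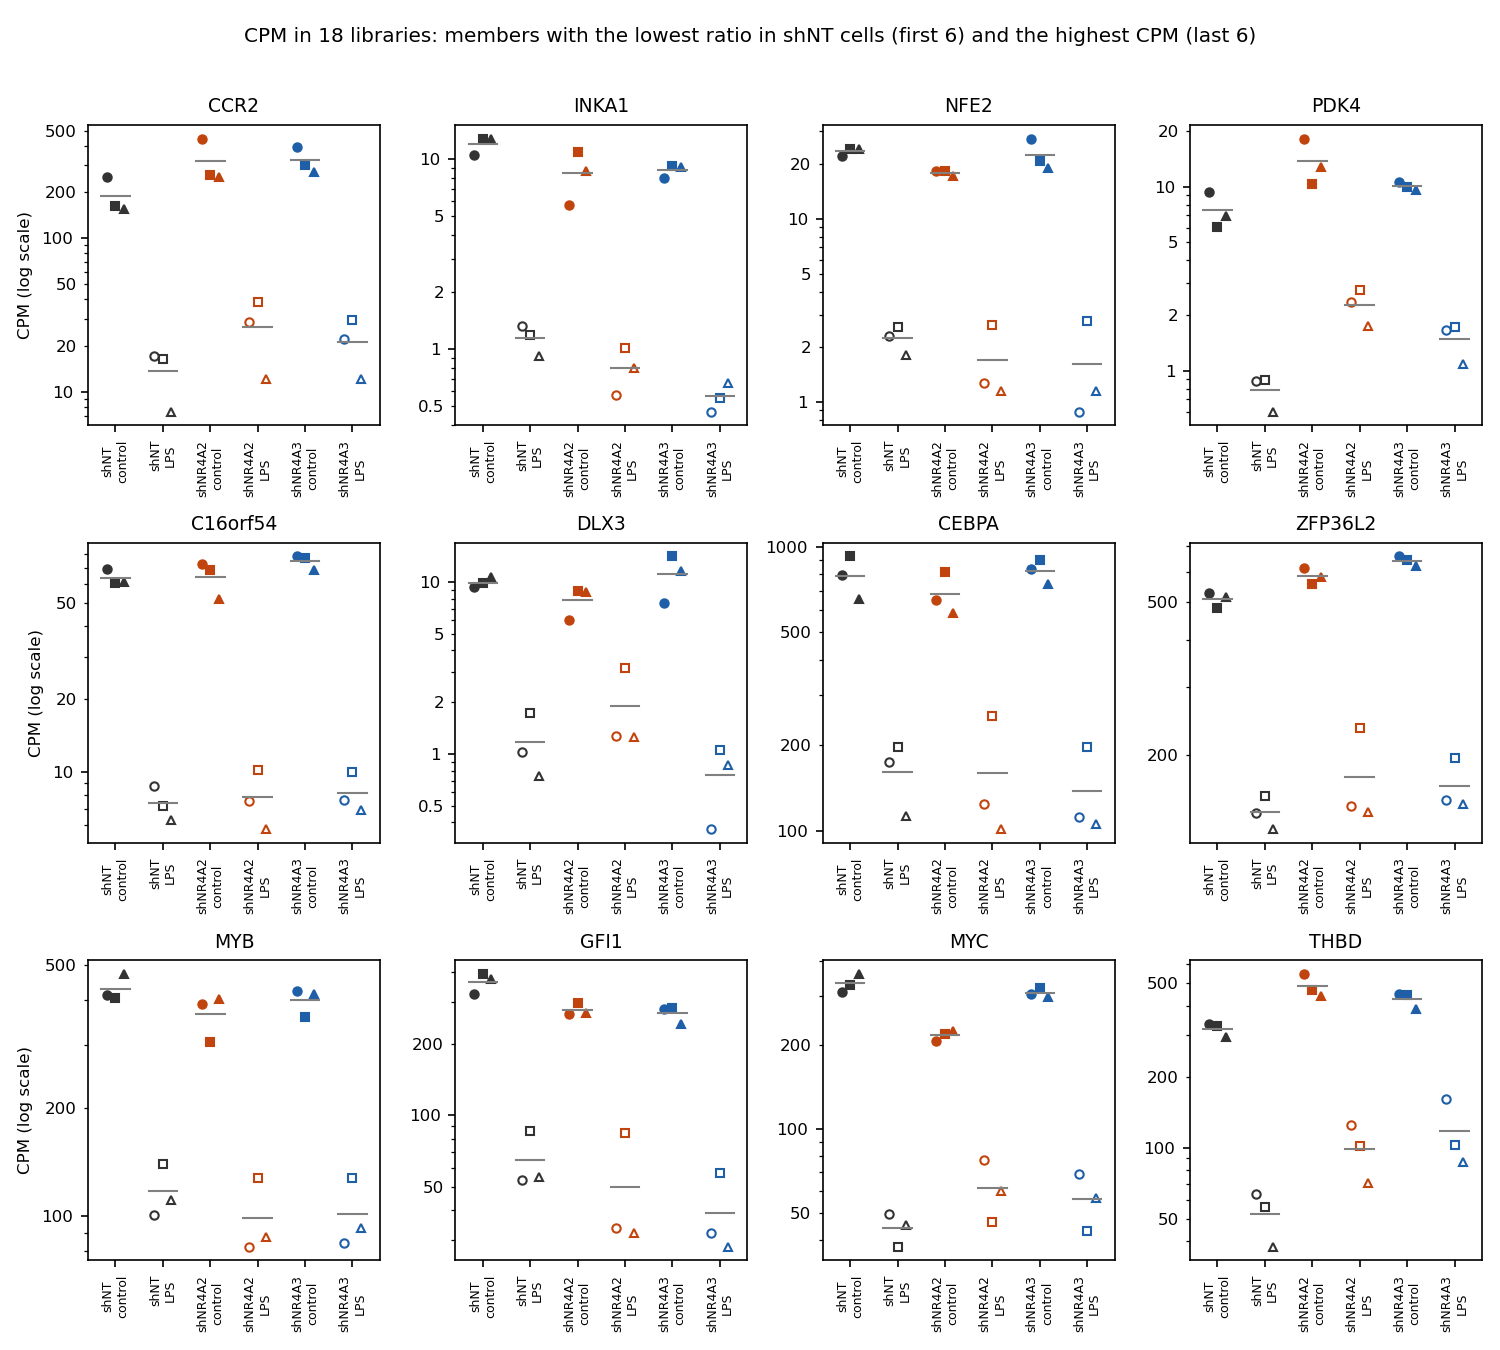
CPM on a log scale in each of the 18 libraries (circle, square and triangle for replicates 1, 2 and 3; filled for control, open for LPS; grey line for the group mean) for the 6 members with the lowest ratio in shNT cells and the 6 with the highest CPM. In each panel every LPS library lies below every control library of its line, and CCR2 falls from 155 to 249 CPM to between 7.45 and 17.1 CPM in shNT cells.

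The deepest fall in shNT cells was that of CCR2, the receptor through which monocytes follow CCL2 out of the bone marrow and into tissue. Unstimulated shNT cells had 249, 161 and 155 CPM of CCR2, and LPS-treated shNT cells 17.1, 16.3 and 7.45 CPM. In shNR4A2 cells the control libraries had 444, 258 and 248 CPM and the LPS libraries 28.6, 38.4 and 12.2 CPM. In shNR4A3 cells the values were 392, 298 and 271 CPM without LPS and 22.1, 29.6 and 12.1 CPM with it. LPS and control libraries were far apart in every line, with a 13.8-fold lower mean in shNT, 12-fold in shNR4A2 and 15.1-fold in shNR4A3 cells. Values given as n-fold lower, here and below, are ratios of mean CPM by library totals, without TMM. With totals alone the median member changed by a log2 fold change of -1.70 in shNR4A2 and -1.78 in shNR4A3 cells. With TMM, as used for the calls, it changed by -1.48 and -1.59, so the CPM folds run deeper. By edgeR's quasi-likelihood test with Benjamini-Hochberg adjustment, CCR2 changed by a log2 fold change of -3.38 ± 0.35 (SE) in the shNR4A2 line (adjusted p = 2.04e-05). The change in the shNR4A3 line was -3.73 ± 0.26 (adjusted p = 1.78e-06).

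The knockdown lines gave the test of whether the fall was particular to the libraries that chose the genes. In shNR4A2 cells 145 of the 146 members were called lower with LPS and none higher, where 10.1% of all 15772 genes tested were called lower (12% of the genes past the CPM floor) and 9.23% higher. In shNR4A3 cells 145 members were again called lower and none higher, where 15% of the 15342 genes tested were called lower (18.5% of those past the floor) and 13.1% higher. A total of 144 members were called lower in both lines, which share no library. The median member changed by a log2 fold change of -1.48 in shNR4A2 cells (range -3.38 to -0.68, all genes -0.02) and of -1.59 in shNR4A3 cells (range -3.73 to -0.64, all genes -0.01). A fall of at least 2-fold was called for 134 members in shNR4A2 cells (3.5% of all genes) and for 140 in shNR4A3 cells (4.09% of all genes). The control and LPS libraries did not overlap for any of the 146 members in either line, in CPM, where 35% and 39.1% of all genes lay wholly lower with LPS. By CPM, 129 members had a ratio of 0.4 or less in shNR4A2 cells (2.1% of the genes past the floor), 131 in shNR4A3 cells (2.38%), and 122 in both.

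**Figure D2:**
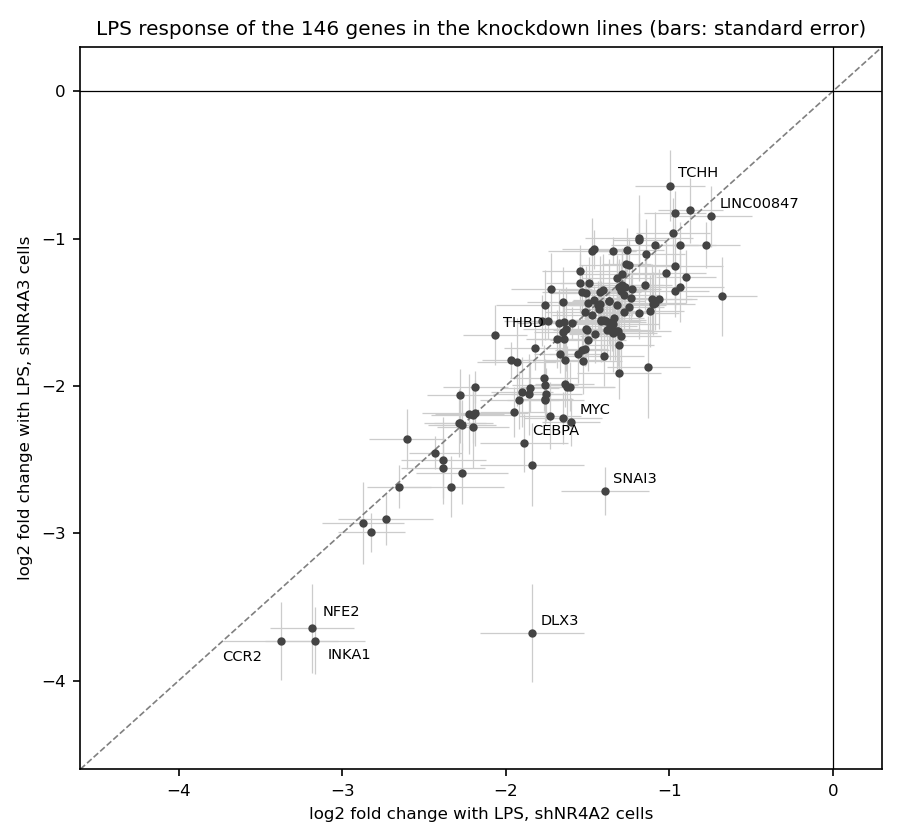
Log2 fold change with LPS in shNR4A2 cells (horizontal) and in shNR4A3 cells (vertical) for the 146 genes, each with its standard error, with a dashed line of equality. All points lie below 0 on both axes, and DLX3 (-1.84 and -3.68) and SNAI3 (-1.40 and -2.71) lie farthest below the line.

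The exceptions were a noncoding RNA and a structural protein. LINC00847 was at 3.93, 5.10 and 6.12 CPM in unstimulated shNR4A2 cells and at 2.71, 1.99 and 3.04 CPM with LPS, a log2 fold change of -0.74 ± 0.25 (adjusted p = 0.0565, edgeR). TCHH, which encodes trichohyalin of the hair follicle sheath, was at 7.06, 6.28 and 5.27 CPM in unstimulated shNR4A3 cells and at 2.40, 4.95 and 3.19 CPM with LPS (-0.64 ± 0.24, adjusted p = 0.0724). Neither set of libraries overlapped, and both genes were called in the other line. When the replicate number entered the fit as a block, LINC00847 (adjusted p = 0.0220) and TCHH (adjusted p = 0.0316) were called too, so that all 146 members were called lower in both lines. LINC00847 shares exon sequence with HEIH on the opposite strand, which had more reads, and the strand setting of the counting is not given in the sources used here.

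**Figure D3:**
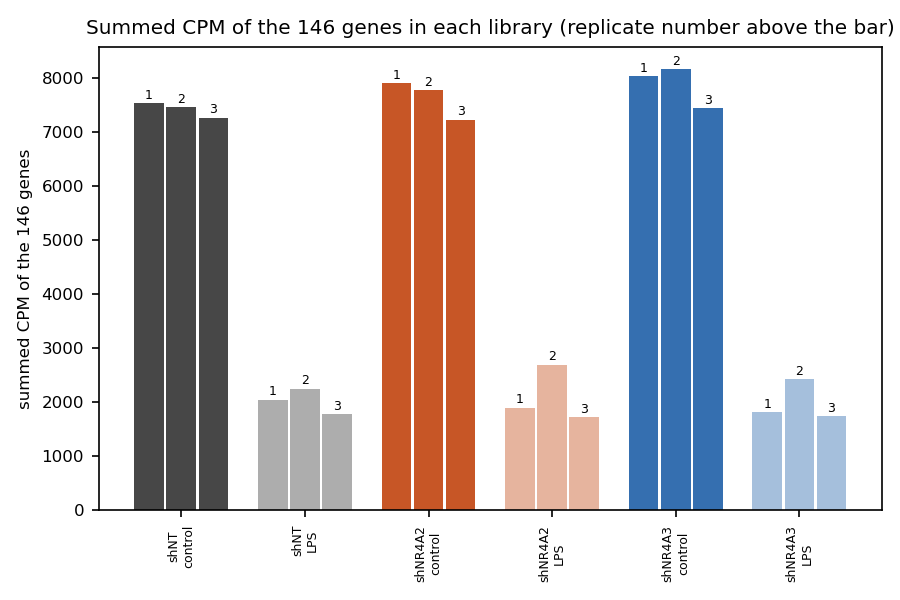
Summed CPM of the 146 genes in each library, with the replicate number above each bar. Control libraries lie between 7234 and 8171 CPM and LPS libraries between 1722 and 2698 CPM, and replicate 2 is the highest LPS library of each line.

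The LPS libraries of replicate 2 stood apart. Their summed CPM over the members was 2250 in shNT, 2698 in shNR4A2 and 2433 in shNR4A3 cells, where the other LPS libraries lay between 1722 and 2046. With LPS, replicate 2 was the highest library for 109 members in shNR4A2 cells and 108 in shNR4A3 cells, and for 61 in shNT cells. Without LPS it was the highest for 57, 60 and 38 members. Leaving replicate 2 out, 140 members were called lower in shNR4A2 cells and 146 in shNR4A3 cells. What sets this replicate apart was not tested.

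Transcription factors of blood development, growth or patterning made up 20 of the members, and all 20 were called lower in each knockdown line. Their median ratio was 0.274 in shNT, 0.264 in shNR4A2 and 0.231 in shNR4A3 cells. CEBPA, which commits progenitors to the granulocyte and monocyte lineages, took the most reads of any member, with 796, 928 and 653 CPM in unstimulated shNT cells and 174, 197 and 113 CPM with LPS. In shNR4A2 cells CEBPA went from 652, 813 and 583 CPM to 125, 254 and 102 CPM (log2 fold change -1.89 ± 0.27, adjusted p = 0.000277, edgeR). In shNR4A3 cells it went from 836, 899 and 740 CPM to 112, 198 and 106 CPM (-2.39 ± 0.19, adjusted p = 5.19e-06). The LPS libraries lay at a similar level in all lines and replicate 2 was the highest of each. CEBPA-DT, a noncoding transcript that starts beside CEBPA on the other strand, had a ratio of 0.293, 0.254 and 0.220 in shNT, shNR4A2 and shNR4A3 cells and was called lower in both knockdown lines.

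GFI1, a zinc finger repressor that shapes the choice between granulocytes and monocytes, had 323, 394 and 375 CPM in unstimulated shNT cells and 53.5, 85.7 and 55.0 CPM with LPS. MYB, a factor of cycling progenitors whose RNA falls as monocytes mature, had 411, 404 and 473 CPM and 101, 140 and 111 CPM. GFI1 was 5.54-fold lower with LPS in shNR4A2 and 6.86-fold lower in shNR4A3 cells, and MYB 3.68-fold and 3.92-fold. The same direction was found for the homeobox factor HHEX (7.30-fold and 7.40-fold), the retinoic acid receptor RARA (4.37-fold and 4.86-fold) and the blood stem cell factor LYL1 (3.92-fold and 4.84-fold), each called in both lines. NFE2, a factor of the megakaryocyte and erythroid lineages, had 22, 24.1 and 24 CPM in unstimulated shNT cells and 2.30, 2.58 and 1.80 CPM with LPS. NFE2 was then 10.6-fold lower in shNR4A2 and 13.9-fold lower in shNR4A3 cells, the deepest mean fall of any member factor in the shNR4A2 line.

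MYC, a driver of growth and division, had 309, 329 and 361 CPM in unstimulated shNT cells and 49.3, 37.8 and 45.4 CPM with LPS. In shNR4A2 cells MYC had 207, 220 and 225 CPM without LPS and 77.3, 46.2 and 59.8 CPM with it. In shNR4A3 cells MYC had 306, 321 and 297 CPM without LPS and 68.7, 43.1 and 56.7 CPM with it. Unlike most members, MYC was lowest in the LPS library of replicate 2 in every line. By edgeR its log2 fold change with LPS was -1.60 ± 0.18 in the shNR4A2 line (adjusted p = 3.85e-05) and -2.24 ± 0.16 in the shNR4A3 line (adjusted p = 1.96e-06). MNT, a partner of MAX that opposes MYC, was itself a member with ratios of 0.39, 0.31 and 0.35. ID2 and ID3, inhibitors of basic helix-loop-helix factors, and TGIF1, a repressor of SMAD-driven transcription, were called lower in both lines (ID3 in shNR4A2 cells not without replicate 2, adjusted p = 0.0662 by edgeR), ID2 by 3.04-fold and 3.39-fold and TGIF1 by 2.58-fold and 2.88-fold. These 3 are the members among 34 listed genes of TGF-beta and BMP signalling, of which 7 of 31 tested were called lower and 4 higher in shNR4A2 cells, and 10 of 32 lower and 4 higher in shNR4A3 cells. Without the 3 members, 4 of 28 were lower and 4 higher in shNR4A2 cells, and 7 of 29 lower and 4 higher in shNR4A3 cells. MYC and MNT are the members among 38 listed cell cycle genes, of which 6 of 34 were called lower and 8 higher in shNR4A2 cells, and 9 of 34 in each direction in shNR4A3 cells. Without MYC and MNT, 4 of 32 were lower and 8 higher in shNR4A2 cells, and 7 of 32 lower and 9 higher in shNR4A3 cells.

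The promoters of member factors that moved together can be read in RefSeq. A RefSeq promoter was found for 109 of the 146 members (74.7%), and the other 37 could not be searched. Shown are the 250 bases before the start, 5′ to 3′ on the strand of the gene, for the 3 of 20 most changed, most abundant or line-dependent members whose window was kept, each free of annotated exons (GRCh38.p14). These are MYB (chr6:135181058-135181307, plus strand), GFI1 (chr1:92486926-92487175, minus strand) and ST8SIA4 (chr5:100903283-100903532, minus strand), a sialyltransferase described further on. Capitals mark a GC box (GGGCGG on either strand) or, in ST8SIA4, also a CCAAT box (ATTGG, its reverse).
MYB: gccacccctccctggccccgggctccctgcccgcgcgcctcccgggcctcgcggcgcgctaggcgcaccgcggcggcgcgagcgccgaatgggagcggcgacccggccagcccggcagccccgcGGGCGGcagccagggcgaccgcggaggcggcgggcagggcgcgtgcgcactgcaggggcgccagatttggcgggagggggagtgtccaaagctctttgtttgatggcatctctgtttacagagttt
GFI1: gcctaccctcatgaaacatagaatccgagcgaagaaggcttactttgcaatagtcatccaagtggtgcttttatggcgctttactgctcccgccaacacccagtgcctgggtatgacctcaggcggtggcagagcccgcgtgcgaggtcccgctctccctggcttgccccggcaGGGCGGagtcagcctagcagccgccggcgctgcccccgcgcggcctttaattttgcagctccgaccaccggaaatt
ST8SIA4: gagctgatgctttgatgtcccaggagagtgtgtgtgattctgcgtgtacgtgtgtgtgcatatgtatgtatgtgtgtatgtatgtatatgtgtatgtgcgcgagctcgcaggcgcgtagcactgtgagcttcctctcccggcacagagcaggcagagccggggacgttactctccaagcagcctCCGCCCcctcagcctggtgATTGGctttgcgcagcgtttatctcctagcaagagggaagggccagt
Searched on both strands were the NBRE (AAAGGTCA), the kappaB site (GGGANTTTC), the AP-1 site (TGANTCA), the CRE (TGACGTCA), the GC box, the CCAAT box (CCAAT) and the TATA box (TATAAA), of which none contains another. Each of the 3 promoters held 1 GC box, which 42.6% of all 35116 RefSeq promoters and 68.5% of those of genes past the CPM floor held in the same window, and a CCAAT box stood in 32% of all RefSeq promoters and 35.6% of those of genes past the floor. The letters of the NBRE (1.05% of all promoters), the kappaB site (1.12%), the AP-1 site (6.57%), the CRE (1.65%) and the TATA box (10.7%) were not in these 3 windows. They say nothing of more distant sites. Of the 109 member promoters, 0% held the NBRE, 1.83% the kappaB site, 6.42% the AP-1 site and 1.83% the CRE. In the 8655 promoters of genes past the floor these were 0.635%, 1.06%, 3.44% and 3.02%. The GC, CCAAT and TATA boxes stood in 61.5%, 29.4% and 6.42% of member promoters, beside 68.5%, 35.6% and 4.73%. These shares were not tested, and members without a promoter may differ.

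A wider list of 26 myeloid transcription factors showed changes in both directions. In shNR4A2 cells 11 of the 22 tested were called lower and 3 higher, with a median log2 fold change of -0.53, and in shNR4A3 cells 12 of 22 were called lower and 3 higher, with a median of -0.36. Of the list, 3 are members. Without them 8 of 19 were called lower and 3 higher in shNR4A2 cells, and 9 of 19 lower and 3 higher in shNR4A3 cells. CEBPE, a factor of late granulocyte maturation, fell below the CPM floor of the membership rule and was lower with LPS in both lines (-2.25 ± 0.41, adjusted p = 0.00184, and -1.77 ± 0.35, adjusted p = 0.00283). LMO2, RUNX3 and GATA2 were called lower in both lines with log2 fold changes from -1.29 to -0.96. SPI1, the master factor of the monocyte lineage, rose by 0.76 ± 0.15 and 0.79 ± 0.12 on the log2 scale. These list genes outside the members were named after their values were seen.

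Zinc finger proteins made up 15 members, among them proteins of the KRAB family, known for silencing transposable elements, and all 15 were called lower in each line. ZFP69 took the most reads of them, with 168, 178 and 211 CPM in unstimulated shNT cells and 60.1, 68.8 and 65.8 CPM with LPS, and was 2.82-fold lower in shNR4A2 and 3.22-fold lower in shNR4A3 cells. Their median ratio was 0.366 in shNT, 0.324 in shNR4A2 and 0.314 in shNR4A3 cells, so they lay nearer to the limit than the other factors. By symbol alone, 10.96% of members and 3.81% of genes past the floor carry a zinc finger name, a count of 16 that includes ZFP36L2. Of all genes with such a name, 178 of 553 were called lower and 14 higher in shNR4A2 cells, and 204 of 543 lower and 23 higher in shNR4A3 cells. Without the 16 members these were 162 of 537 and 14, and 188 of 527 and 23. The median of that family was -0.40 and -0.36 on the log2 scale, beside -0.02 and -0.01 for all genes.

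ZFP36L2 binds AU-rich elements and speeds the decay of short-lived RNA. It was at 528, 482 and 516 CPM in unstimulated shNT cells and at 141, 157 and 128 CPM with LPS. By edgeR its log2 fold change was -1.53 ± 0.17 in the shNR4A2 line (adjusted p = 2.99e-05) and -1.76 ± 0.10 in the shNR4A3 line (adjusted p = 3.64e-07). A group of 6 members acts on chromatin or as corepressors, and all were called lower in both lines. Among them were the Polycomb proteins CBX2 (ratios 0.34, 0.27 and 0.28) and CBX8 (0.34, 0.27 and 0.27), the Groucho corepressor TLE3 (0.35, 0.36 and 0.34) and ELMSAN1 (0.24, 0.24 and 0.26), in the order shNT, shNR4A2, shNR4A3.

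**Figure D4:**
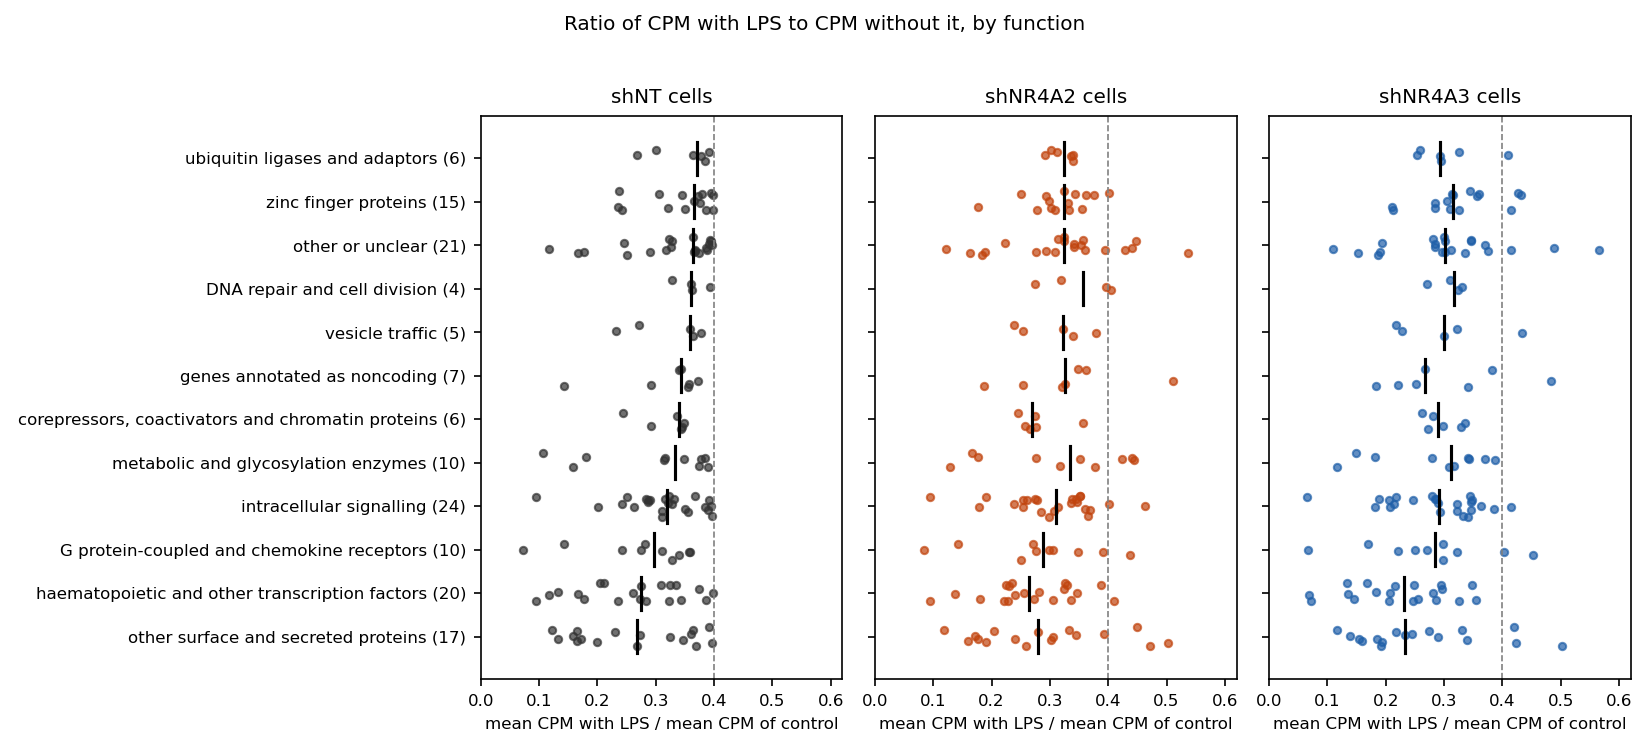
Ratio of mean CPM with LPS to mean CPM of control for each member, by function (number of members in brackets) and line, with a black bar for the median and a dashed line at 0.4, the limit set in shNT cells. Surface and secreted proteins and transcription factors have the lowest medians in shNT cells (0.267 and 0.274), and the highest ratio in the knockdown lines is 0.566 (TCHH in shNR4A3 cells).

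G protein-coupled and chemokine receptors made up 10 members, and all 10 were called lower in each knockdown line. CCR1, a receptor for CCL3 and CCL5, had 76.7, 57.8 and 48.5 CPM in unstimulated shNT cells and 9.50, 9.36 and 7.36 CPM with LPS. CCR1 was 7.05-fold lower with LPS in shNR4A2 and 5.92-fold lower in shNR4A3 cells. CX3CR1, the fractalkine receptor of patrolling monocytes, was 3.62-fold and 4.53-fold lower, and CXCR2, a receptor for CXCL8, 3.34-fold and 4.01-fold. Of 20 chemoattractant receptors listed, 7 of 18 tested were called lower and 4 higher in shNR4A2 cells, and 9 of 19 lower and 4 higher in shNR4A3 cells. These counts include the 4 members, chosen for their fall in shNT cells. Without them 3 of 14 were lower and 4 higher in shNR4A2 cells, and 5 of 15 lower and 4 higher in shNR4A3 cells. The receptors that rose were PTAFR, CCRL2, CCR7 and C3AR1, of which C3AR1, for the complement fragment C3a, rose by 3.07 ± 0.17 and 3.42 ± 0.17 on the log2 scale.

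ACKR2, a chemokine scavenger of that group, was 2.28-fold and 2.21-fold lower in mean CPM in shNR4A2 and shNR4A3 cells. Its log2 fold changes by edgeR, the shallowest of the 10 members, were -0.98 and -0.96. The rest of that group were the G protein-coupled receptor GPR35 (2.55-fold and 2.48-fold) and receptors for nucleotides, lysolipids and histamine. P2RY2, which binds ATP and UTP, took the most reads of the latter, with 139, 150.5 and 114 CPM in unstimulated shNT cells and 48.2, 63.9 and 32.2 CPM with LPS. P2RY2 was 2.87-fold and 3.10-fold lower in the knockdown lines, and the first of these calls was lost with DESeq2 (adjusted p = 0.0572) and without control replicate 2 of shNR4A2 (adjusted p = 0.0710, edgeR). The ADP receptor P2RY1 was 4.00-fold and 3.36-fold lower, the histamine receptor HRH2 3.69-fold and 3.36-fold, and the lysophosphatidic acid receptor LPAR5 3.28-fold and 3.69-fold. Of 43 such receptors listed, 15 of 36 tested were called lower and 10 higher in shNR4A2 cells, and 15 of 35 lower and 10 higher in shNR4A3 cells. Without the 5 members among them, 10 were called lower and 10 higher in each line (31 and 30 tested). ADORA3, an adenosine receptor, was lower by -3.28 ± 0.51 and -3.25 ± 0.40 on the log2 scale, while ADORA2A rose by 5.12 ± 0.48 and 5.58 ± 0.54 from under 0.13 mean TPM.

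Other surface or secreted proteins made up 17 members, all called lower in each line, and had the lowest median ratio of any role in shNT cells (0.267). THBD encodes thrombomodulin, which turns thrombin towards activation of protein C. THBD was at 333, 328 and 295 CPM in unstimulated shNT cells and at 63.5, 55.8 and 38 CPM with LPS. In shNR4A2 cells it was at 547, 466 and 440 CPM without LPS and at 125, 102 and 70.6 CPM with it, and in shNR4A3 cells at 450, 444 and 387 CPM and at 162, 103 and 87.3 CPM. THBD lay above shNT in all 4 knockdown groups and was still 4.89-fold and 3.64-fold lower with LPS. IL16 (8.49-fold and 8.57-fold) and TNFSF14 (6.27-fold and 6.28-fold), a T cell chemoattractant and a ligand of the lymphotoxin receptor, were lowered by LPS. ADAMTS1, ADAMTS4 and ADAMTS15, secreted proteases of the extracellular matrix, had ratios in shNT cells of 0.37, 0.16 and 0.17.

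Intracellular signalling proteins were the largest role, with 24 members, all called lower in each line. INKA1, an inhibitor of the kinase PAK4, had 10.5, 12.7 and 12.8 CPM in unstimulated shNT cells and 1.32, 1.19 and 0.926 CPM with LPS. INKA1 was 10.6-fold lower in shNR4A2 and 15.5-fold lower in shNR4A3 cells. The role also held the PI3-kinase subunits PIK3CG and PIK3R1, the GSK3 binding proteins FRAT1 and FRAT2, the death adaptor FADD, MAP3K1 and the G protein regulators RGS3 and RGS18. FRAT1 had ratios of 0.28, 0.28 and 0.19 and FRAT2 of 0.29, 0.25 and 0.20 in shNT, shNR4A2 and shNR4A3 cells. CISH, an inhibitor of cytokine receptor signalling (0.20, 0.18 and 0.18), shares exon sequence with MAPKAPK3 on the opposite strand, which had more reads.

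Among 10 enzymes of metabolism and glycosylation, all called lower in each line, PDK4 changed most in shNT cells. PDK4, a kinase that shuts down pyruvate dehydrogenase, had 9.40, 6.07 and 6.92 CPM in unstimulated shNT cells and 0.881, 0.892 and 0.602 CPM with LPS. In shNR4A2 cells it had 18.2, 10.4 and 12.8 CPM without LPS and 2.36, 2.75 and 1.75 CPM with it, and in shNR4A3 cells 10.6, 9.96 and 9.59 CPM and 1.67, 1.73 and 1.09 CPM. PDK4 was higher in all 4 knockdown groups than in shNT, and its fall with LPS was 6.04-fold and 6.71-fold beside 9.43-fold in shNT cells. PDK4 was named for its low ratio in shNT cells, which favours a deeper fall there, and this difference was not tested. B3GNT7, B3GNT8, FUT7 and ST8SIA4 extend or cap sugar chains, and FUT7 makes selectin ligands on leukocytes. B3GNT8 had ratios of 0.16, 0.13 and 0.12, and FUT7 of 0.35, 0.35 and 0.34. Of the LPS calls of named members in shNR4A2 cells, that of B3GNT7 was lost under the most alternatives (log2 fold change -0.97 ± 0.30, adjusted p = 0.0380, edgeR), which DESeq2 did not make (adjusted p = 0.165). It was also lost without control replicate 1 (adjusted p = 0.0557) or 2 (0.188) and without LPS replicate 1 (0.133) or 3 (0.0854). FUT7 and the member C9orf139 (0.14, 0.19 and 0.18) overlap on opposite strands, so their reads cannot be told apart without the strand setting.

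A further 6 ubiquitin ligases or adaptors, 5 proteins of vesicle traffic, 4 of DNA repair or division and 7 noncoding genes completed the named roles. All were called lower in both lines except LINC00847 in shNR4A2 cells. Of genes whose symbols mark long noncoding RNAs, 34 of 534 tested were called lower and 61 higher in shNR4A2 cells, and 37 of 504 lower and 83 higher in shNR4A3 cells. Their median log2 fold change was -0.01 and 0.06, near that of all genes. Of 21 listed growth arrest and stress genes none was a member, and 11 were called higher in each line, beside 4 and 3 lower. A further 21 had no clear role, of which C16orf54 fell most, from 69.2, 60.8 and 60.9 CPM to 8.76, 7.23 and 6.29 CPM in shNT cells. C16orf54 was 8.18-fold lower in shNR4A2 and 9.09-fold lower in shNR4A3 cells.

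Between the knockdown lines, 11 of the 146 members were called without LPS and none with it. Without LPS, 7 members were called lower and 4 higher in shNR4A2 than in shNR4A3 cells, where 1.14% and 1.94% of the 15584 genes tested were called. None of the members was called at 2-fold or more (0.295% of all genes lower, 1.08% higher). Lower in shNR4A2 were the transcription regulators MYC, SNAI3, ID2 and ID3, the glycosyltransferases B3GNT7 and ST8SIA4 and the adaptor SASH3. Higher were the protease ADAMTS15, the CDC42 exchange factor FGD4, TMEM121B and the melanosome linker MLPH. Blocking on the replicate number, 22 members were called lower and 10 higher, beside 5.51% and 6.04% of all genes in the same fit. In CPM, the libraries of the lines did not overlap for 22 members lower in shNR4A2 cells and 18 higher, beside 6.96% and 12.6% of all genes. MYC, ID2 and SASH3 were named after their values were seen.

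**Figure D5:**
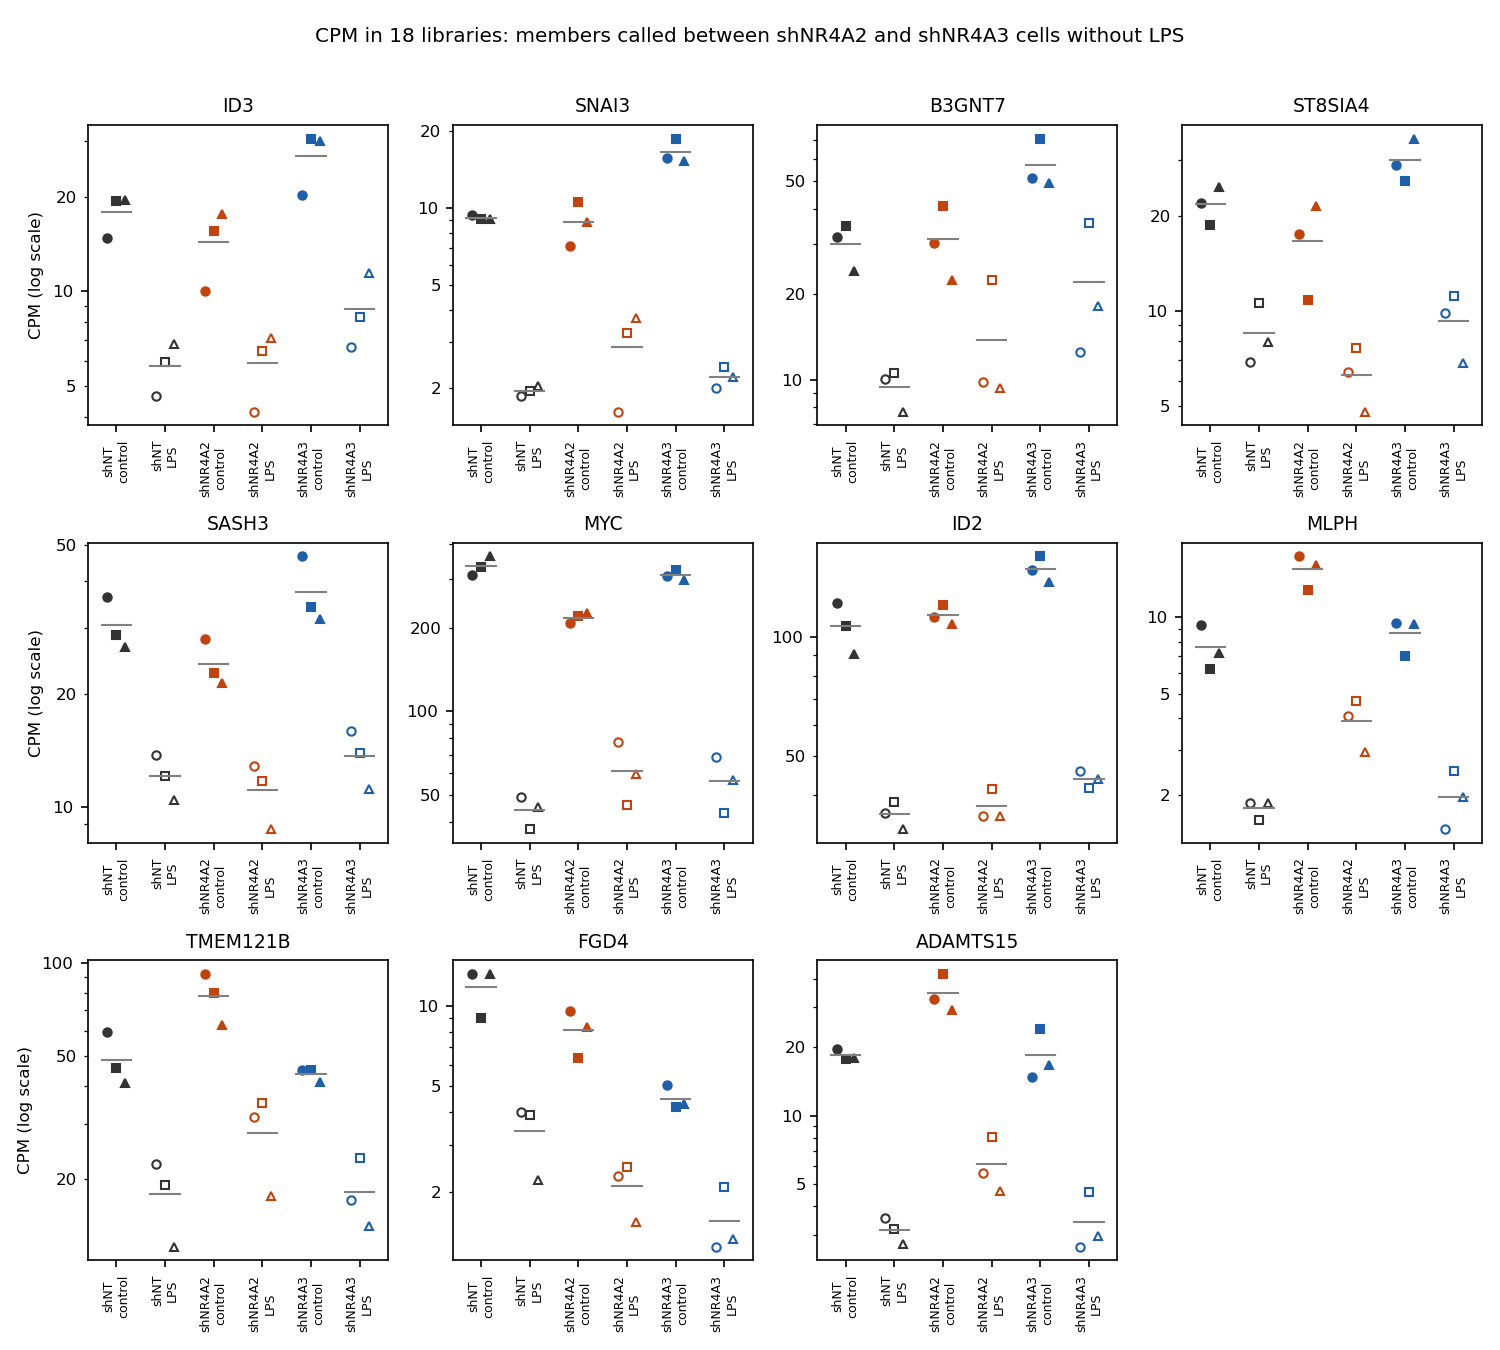
CPM on a log scale in each of the 18 libraries for the 11 members called between shNR4A2 and shNR4A3 cells without LPS (markers as in the plot of CPM by library). The first 7 panels hold genes lower in unstimulated shNR4A2 cells and the last 4 genes higher there, and for all 11 the control libraries of the lines do not overlap.

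SNAI3, a Snail family repressor, had 7.15, 10.5 and 8.85 CPM in unstimulated shNR4A2 cells and 15.7, 18.6 and 15.3 CPM in shNR4A3 cells (log2 fold change -0.94 ± 0.17, adjusted p = 0.00847, edgeR). ID3 had 10.0, 15.6 and 17.6 CPM and 20.2, 30.6 and 30.1 CPM (-0.95 ± 0.20, adjusted p = 0.0253). B3GNT7 had 30.3, 40.8 and 22.5 CPM and 51.3, 70.6 and 49.4 CPM (-0.91 ± 0.20, adjusted p = 0.0299). ST8SIA4, which makes polysialic acid, had 17.5, 10.8 and 21.4 CPM and 29, 25.8 and 35.1 CPM. In each of these the shNR4A3 libraries were all above the shNR4A2 libraries, and unstimulated shNT cells were nearer to shNR4A2, with 9.40, 9.05 and 9.06 CPM of SNAI3. ADAMTS15 had 32.7, 42.1 and 29.2 CPM in shNR4A2 and 14.8, 24 and 16.7 CPM in shNR4A3 cells (0.88 ± 0.19, adjusted p = 0.0260), and MLPH 17.4, 12.7 and 16.1 CPM and 9.44, 7 and 9.42 CPM (0.80 ± 0.17, adjusted p = 0.0263). Here the shNR4A2 libraries stood above the rest, since shNT cells had 19.6, 17.7 and 18 CPM of ADAMTS15 and 9.30, 6.25 and 7.22 CPM of MLPH. Leaving out single libraries left between 4 and 12 members called, with 5 and 7 without replicate 1 or 3 of shNR4A2 and 4, 6 and 5 without replicate 1, 2 or 3 of shNR4A3. FGD4 lost its call in 5 of these 6 fits (adjusted p from 0.0803 to 0.159, edgeR), as did MLPH (0.0559 to 0.0962). B3GNT7 lost it in 4 and ADAMTS15, ID3 and ST8SIA4 in 3 each, while SNAI3 and TMEM121B kept it in all 6. For MYC, ID2 and SASH3 the calls in these fits are not listed singly, so they may have been lost.

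With LPS no member was called between the knockdown lines by edgeR, where 1.06% and 1.27% of the 15539 genes tested were called lower and higher in shNR4A2 cells. At an unadjusted p under 0.05 there were 23 of the 146, beside 17.8% of all genes. DESeq2 called 2, beside 4.18% of all genes, TMEM37 (higher in shNR4A2) and PIK3CG, the catalytic subunit p110 gamma (lower). Blocking on the replicate number, 13 were called lower and 24 higher, beside 11.8% of all genes in each direction. In CPM 8 lay wholly lower and 11 wholly higher, beside 9.97% and 12.3% of all genes. PIK3CG had 16.1, 21.4 and 12.2 CPM in LPS-treated shNR4A2 cells and 27.3, 32.4 and 21.4 CPM in shNR4A3 cells, a difference in every replicate pair. With the block in edgeR, PIK3CG (log2 fold change -0.73, adjusted p = 5.91e-05) and TMEM37 (1.18, adjusted p = 0.000632) were called, as were ADAMTS15 (0.83, adjusted p = 0.00237), MLPH (0.97, adjusted p = 0.0063), CX3CR1 (0.56, adjusted p = 0.00256) and CCR2 (0.27, adjusted p = 0.0472).

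The LPS response itself was compared between the knockdown lines by an interaction term. No member was called (smallest adjusted p = 1), as was no gene of the 16447 tested, of which 396 had an unadjusted p under 0.05. DESeq2 called none of the members and 1 gene in all. With 3 libraries per group, the lack of calls does not show that the lines responded alike. Only 3 members had an unadjusted p under 0.05, DLX3, SNAI3 and MYC, all with a shallower fall in shNR4A2 cells. The homeobox gene DLX3 went from 5.98, 8.89 and 8.80 CPM to 1.27, 3.16 and 1.25 CPM in shNR4A2 cells and from 7.52, 14.1 and 11.6 CPM to 0.365, 1.05 and 0.857 CPM in shNR4A3 cells, a difference in log2 fold change of 1.84 ± 0.53 (unadjusted p = 0.00336). SNAI3 differed by 1.32 ± 0.33 (unadjusted p = 0.00116) and MYC by 0.64 ± 0.26 (unadjusted p = 0.0279). DLX3 and SNAI3 passed the adjusted threshold only when genes of low counts were kept in the fit. SNAI3 shares exon sequence with SNAI3-AS1 on the opposite strand.

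Against shNT the knockdown lines are described without a test, since the shNT libraries chose the members. The rule favours genes that happened to be high in unstimulated and low in LPS-treated shNT libraries. Values below shNT without LPS, and above shNT with LPS, can thus come in part from the choice of members. The comparisons share their shNT libraries. The median member differed from shNT by a log2 fold change of -0.02 in unstimulated shNR4A2 cells, 0.06 in LPS-treated shNR4A2 cells, 0.06 in unstimulated shNR4A3 cells and -0.04 in LPS-treated shNR4A3 cells. Few members differed by 2-fold, with 0 lower and 2 higher in unstimulated shNR4A2 cells (1.06% and 2.33% of all genes), 2 and 4 with LPS (1.01% and 3.3%), 1 and 0 in unstimulated shNR4A3 cells (1.48% and 1.13%) and 2 and 3 with LPS (1.46% and 2.5%). In CPM, 23 members lay wholly below and 22 wholly above shNT in unstimulated shNR4A2 cells (11.9% and 14.3% of all genes) and 10 and 10 with LPS (16.1% and 11.9%). In shNR4A3 cells these were 29 and 30 without LPS (14.6% and 11.2%) and 15 and 12 with it (18.2% and 10.5%).

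P2RY1 was lower than shNT in all 4 knockdown groups. It had 17.5, 15.2 and 18.9 CPM in unstimulated shNT cells, 11.2, 8.42 and 9.98 CPM in shNR4A2 cells and 9.10, 9.54 and 9.70 CPM in shNR4A3 cells. With LPS it had 5.73, 5.25 and 5.92 CPM in shNT, 1.61, 3.01 and 2.79 CPM in shNR4A2 and 2.77, 3.28 and 2.38 CPM in shNR4A3 cells. MBLAC2 was likewise lower in all 4 groups, by log2 fold changes of -1.04 to -0.58, and PIK3CG was lower in both groups of shNR4A2 cells (-0.61 ± 0.13 and -0.86 ± 0.18). FGD4 and LGALS12 were lower in both groups of shNR4A3 cells, FGD4 by -1.36 ± 0.18 and -1.07 ± 0.30 and LGALS12 by -0.81 ± 0.20 and -1.38 ± 0.41. ZNF114 was lower in unstimulated shNR4A2 cells (-0.76 ± 0.20).

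Among members above shNT, THBD and PDK4 were higher in all 4 groups, THBD most in LPS-treated shNR4A3 cells (1.23 ± 0.25) and PDK4 most in LPS-treated shNR4A2 cells (1.56 ± 0.29). CCR1 was above shNT by 0.75 ± 0.19 in shNR4A2 and 1.01 ± 0.21 in shNR4A3 cells with LPS, and by 0.71 ± 0.22 and 0.73 ± 0.16 without it, with an overlap of libraries only in unstimulated shNR4A2 cells. ADAMTS4, ADAMTS15 and MLPH were higher in unstimulated shNR4A2 cells by 1.03 ± 0.23, 0.91 ± 0.15 and 1.01 ± 0.18, and PRAG1, a pseudokinase, by 0.91 ± 0.15. RGS18, a regulator of G protein signalling in platelets and myeloid cells, was above shNT without LPS in both lines, by 0.98 ± 0.23 in shNR4A2 cells, where 1 library overlapped the shNT range, and by 0.93 ± 0.19 in shNR4A3 cells. B3GNT7 was higher in unstimulated shNR4A3 cells by 0.95 ± 0.16 and differed by 0.04 ± 0.21 in shNR4A2 cells. Several monocytic markers were also higher in both lines. Without LPS, 6 of the 10 lay wholly above shNT in shNR4A2 cells and 5 in shNR4A3 cells, and none wholly below. With LPS, 4 lay wholly above shNT in shNR4A2 cells and 5 in shNR4A3 cells, where FCGR1A lay wholly below. Their summed level without LPS was 1291, 1188 and 1162 TPM in shNT, 1980, 1729 and 1856 TPM in shNR4A2 and 2436, 1969 and 2097 TPM in shNR4A3 cells. LYZ changed most in TPM, being at 192 ± 13.6 TPM in unstimulated shNT, 616 ± 134 TPM in shNR4A2 and 883 ± 167 TPM in shNR4A3 cells (mean ± SD, n = 3), while CD4 (170 ± 6.18, 181 ± 13 and 176 ± 13 TPM) and MPO overlapped between all lines. The part of these markers in the differences was not tested.

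The members were short genes. Their median span from first to last exon was 14081 bases, beside 31762 bases for all genes past the CPM floor, and 38.4% of them spanned under 10000 bases beside 19.2%. Exon lengths differed less, with a median of 4454 bases beside 5123. The members took fewer reads, with a median of 19.0 CPM in unstimulated shNT cells beside 39.7 CPM, and 18 of them lie on chromosome 19 (12.3% of members, 7.27% of genes past the floor). Exons of 61 members overlap those of another gene, and for 28 that gene had more than 10% of the member's mean count, so reads of those members may be shared.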

How the data were processed

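RNA was measured in 18 libraries. The authors deposited raw counts of reads for each Ensembl gene, not normalized, with exon positions on GRCh38. The submitters' processing notes name Trimmomatic 0.36, STAR 2.5.2b, featureCounts and Subread 1.5.2; the strand setting is not given in the sources used here. Symbols came from GENCODE 29. From these counts CPM was computed with the total of all counted reads, and TPM with the deposited exon lengths.

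Each tested comparison was fitted on its own 6 libraries (12 for the interaction) with edgeR 4.0.16 in R 4.3.3 (filterByExpr, TMM, quasi-likelihood F test), adjusted by Benjamini and Hochberg over all genes tested and called at an adjusted p under 0.05. Standard errors come from the same fit. The procedure was tested on simulated data. All 146 members passed the filter in every comparison. Totals of 16171161 to 23929138 reads limit what can be seen of genes at a few CPM.

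The members, gene lists and roles were chosen with earlier results of these data known, the roles after the members. Members named in the text followed a rule: the 6 lowest ratios and 6 highest CPM in shNT cells, members not called with LPS, up to 4 called per direction between the knockdown lines, the 3 most different per direction from shNT in each knockdown group without overlap, up to 4 of each list holding 3 or more members, and the genes beside the ratio limit. Other members are named as examples of a role and were picked after their values were seen. Promoters followed the rule with 2 added conditions, a window free of annotated exons and off chromosome 8.

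Libraries with the same replicate number deviated together (correlations of 0.137 to 0.451 over 16866 genes in the tested comparisons), a pairing seen in the data and not stated by the labels, so counts with the number as a block are printed where they move, with blocked values for some of the members that changed call. Alternatives were RLE size factors, library totals alone, no filter, DESeq2 1.42.0, the block, all 18 libraries in 1 fit, a 2-fold limit, each library left out, and other membership limits; leaving out replicate 2 was added after seeing the data. Fold changes or p-values of the authors were not used. A gene of 1 list is not reported here.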

Additional observations from a re-analysis of the deposited data

How the results depend on the processing

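Most members kept their call with LPS under each alternative: between 143 and 146 were called lower in shNR4A2 cells and 145 or 146 in shNR4A3 cells under other normalizations, no filter, DESeq2, the block and all 18 libraries in 1 fit, 139 to 144 and 143 to 145 with single libraries left out, 140 and 146 without replicate 2, and 134 and 140 at 2-fold. None was called higher. Of the members named by rule, B3GNT7, P2RY2, ZNF570, ID3, DBP and LINC00847 lost a call under at least 1 of these other than the 2-fold limit, for which single genes are not listed. With library totals alone the median of all genes moved to -0.23 in shNR4A2 and -0.21 in shNR4A3 cells, the members' to -1.70 and -1.78, and the split of all calls went from 1595 lower and 1455 higher to 3528 and 1009 in shNR4A2 cells, and from 2305 and 2007 to 4494 and 1317 in shNR4A3 cells. All genes called with LPS in shNR4A2 cells were 3050, against 1382 at 2-fold, 4751 with the replicate block, 4601 with all 18 libraries in 1 fit and 2113 to 3375 with single libraries left out. In shNR4A3 cells they were 4312, against 1574 at 2-fold and 3136 to 4863.

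Between the knockdown lines without LPS, 480 genes were called, against 214 at 2-fold, 838 without a filter, 1800 with the replicate block, 249 to 470 with single libraries left out and 259 without replicate 2. Of the members named by rule in that comparison, FGD4, B3GNT7 and TMEM121B lost their call with all 18 libraries in 1 fit. FGD4, ID3 and TMEM121B lost it without replicate 2. Single calls of MYC, ID2 and SASH3 under these alternatives are not listed, so they may have lost theirs too. The 11 members called became 0 at 2-fold, 32 with the replicate block, 7 without replicate 2 and 4 to 12 with single libraries left out. With LPS, 362 genes were called, against 149 at 2-fold, 1102 without a filter, 689 by DESeq2, 3666 with the replicate block, 1032 with all 18 libraries in 1 fit, 94 to 217 with single libraries left out and 158 without replicate 2. Members called there were 0, against 10 without a filter, 2 by DESeq2, 37 with the replicate block and 7 with all 18 libraries in 1 fit. For the difference in LPS response, 29 genes and 2 members were called without a filter and 1 gene by DESeq2. What moves these counts was not tested.

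The membership rule gave 146 genes, against 96 with TMM-scaled CPM and 393 and 56 with ratio limits of 0.5 and 0.3. CPM floors of 1 and 10 gave 265 and 103. With single shNT libraries left out it gave 148 to 183 genes, of which 122 to 141 were among the 146. Over the genes named by rule, with LPS in each line and between the knockdown lines without LPS, 46 values lost their call and 11 gained one. In the same tally 0 changed sign and 1243 kept their call. Calls gained between the lines with LPS or in the difference in LPS response are not in these counts.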
